A study of Mus musculus with 4 samples.

Results

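Vip, Grp, Nms, Prok2, Adcyap1, Vipr2, Prokr2 and Adcyap1r1 encode peptides and receptors through which the suprachiasmatic nucleus, the light-receiving clock of the hypothalamus, is set and passes on time. They were taken by symbol, through the RefSeq accession of each array probe. Of the 8 genes, 7 had a named probe, out of 18350 genes named on the array, with 10 of its 41174 probes between them. No probe was matched to Nms, which encodes neuromedin S, so it was not analysed here. All 7 remaining genes had a probe well above background on all 4 arrays.

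RNA came from mouse brain tissue labelled as thalamus and hypothalamus at postnatal day 14, and the design asks what a lack of light from birth does to gene expression there. For the dark-reared group, dams were moved to a light-tight covered cage 1 to 4 days before giving birth, the litters were tended under dim red light, and the young stayed in the dark until sampling. Control mice lived in standard cages with 12 hours of light a day. There were 2 biological replicates in each group by the labels, hybridised singly to one-colour Agilent arrays. Strain, sex, time of day and the number of animals behind a sample are not given in the sources used here, so p-values measure only the spread between these samples.

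In the suprachiasmatic nucleus, light reaches neurons of the core through axons of retinal ganglion cells, the retinohypothalamic tract, which release glutamate and the peptide PACAP. Core neurons make vasoactive intestinal peptide (VIP) and gastrin-releasing peptide, which couple the clock cells to each other, VIP through the receptor VPAC2. Prokineticin 2 is a rhythmic output of the nucleus and acts on the receptor encoded by Prokr2. Several of these genes are also expressed elsewhere: Vip is made by interneurons of the cortex, and Adcyap1 by neurons of several hypothalamic and thalamic nuclei.

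Neither the peptide genes nor the receptor genes passed the test for an effect of dark rearing. Each value below is a log2 signal after subtraction of its array's 75th percentile, and differences are dark-reared minus control. The limma fit took in 21427 genes, counting 7098 array features without a gene symbol. Of the 21427, 0 (0%) passed a Benjamini-Hochberg adjusted p of 0.05 and 269 (1.26%) an unadjusted one. Of the 7 genes, 0 passed either threshold. The adjusted p was 1.00 for each of them. The median difference of the 7 was -0.25, with 2 genes higher and 5 lower, beside a median of -0.0060 over all genes tested. For a single gene in a design of 2 and 2, the smallest two-sided p of an exact permutation test is 0.333. A 2-fold difference with no overlap between the groups was found for 256 genes (1.19%) and for 0 of the 7, and leaving out 1 array moved the first count to between 525 (without control 2) and 884 (without dark-reared 1). With 1 array left out, no overlap asks only that 1 value lie outside 2, a looser rule, so these counts are not like for like.

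**Figure D1:**
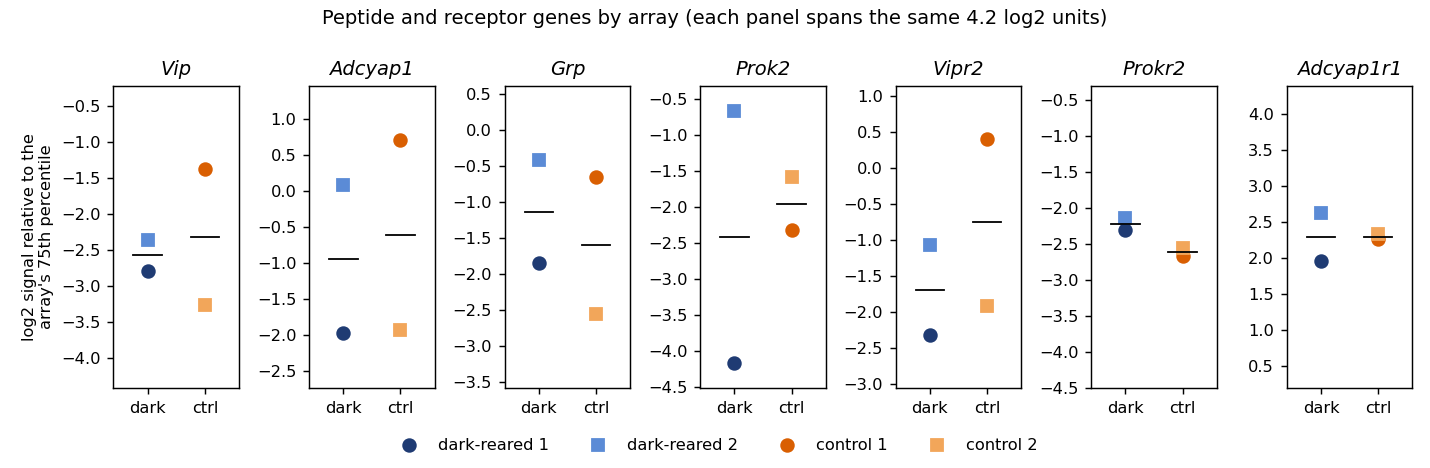
Log2 signal (relative to the 75th percentile of the array) of the 7 genes on the 2 dark-reared and 2 control arrays. Points are arrays, black lines are group means, and the vertical span is the same in each panel. Samples of one group lay far apart for Adcyap1, Grp and Vipr2 in both groups, for Vip in controls (-1.38 and -3.27) and for Prok2 in dark-reared mice, while Prokr2 lay from -2.30 to -2.14 in the dark and from -2.67 to -2.56 in controls.

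For 6 of the 7 genes, the groups overlapped. Vip, the gene of VIP (NM_011702), stood at -2.80 and -2.36 in the first and second dark-reared samples, and at -1.38 and -3.27 in the first and second controls. Control 1 was highest and control 2 lowest, so both dark-reared samples lay between the controls. Dark-reared samples averaged -2.58 ± 0.30 (SD, n = 2) and controls -2.33 ± 1.34 (SD, n = 2). The difference was -0.25, with a standard error in the limma fit of 0.70 and a 95% interval from -2.22 to 1.71. Without control 1 the Vip difference was 0.69, the opposite sign.

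Adcyap1, which encodes PACAP (NM_009625), measured -1.97 (dark-reared 1), 0.08 (dark-reared 2), 0.70 (control 1) and -1.92 (control 2). In each group 1 sample was high and 1 was low, the low values being almost equal. The group difference was -0.34 (standard error 1.19, 95% interval -3.67 to 2.99). It turned to 0.69 without dark-reared 1 and to 0.97 without control 1. On the linear scale, the processed signal of control 1 was 1291 and that of control 2 was 204, each from 1 spot for which the scanner software gave an error of 129 and 23.0.

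The stretches upstream of Vip and Adcyap1 are shown because both ligand genes are known to respond to cAMP. They were not the pair most alike over the arrays: their centred values were 0.63 apart (root mean square), against 0.26 for the closest pair, Prokr2 and Adcyap1r1. Vip was 0.47 from Vipr2 and 0.51 from Grp, and Adcyap1 was 0.43 from Vipr2 and 0.53 from Grp. The Vipr2 window holds no TGACG, and Grp has no window here. Whether these letters have a part in the array values was not tested. Each stretch shown runs 5′ to 3′ from base -250 to base -51 before the start site, from RefSeq on build GRCm38.p6, with the letters TGACG, the first letters of the cAMP response element TGACGTCA, in capitals. Vip lies at chr10:5638968-5639167 on the plus strand, and the first of the 2 Adcyap1 starts in the table at chr17:93198767-93198966 on the plus strand.
Vip: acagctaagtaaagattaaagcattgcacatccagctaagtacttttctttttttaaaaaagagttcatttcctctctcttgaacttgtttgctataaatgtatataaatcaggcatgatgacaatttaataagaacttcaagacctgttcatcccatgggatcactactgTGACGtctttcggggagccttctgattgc
Adcyap1: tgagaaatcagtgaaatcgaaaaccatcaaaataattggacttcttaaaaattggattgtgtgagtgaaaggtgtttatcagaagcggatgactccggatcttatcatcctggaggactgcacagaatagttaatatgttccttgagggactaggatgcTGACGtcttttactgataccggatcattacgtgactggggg

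The longest run of letters that both 250-base windows share is tgacgtcttt, which starts at -79 in Vip and at -91 in Adcyap1. It was found, on either strand, in 20 of 32851 such windows of the promoter table (0.0609%). These include the Vip window and both Adcyap1 windows, which overlap. The run was picked because this pair shares it, so its share does not measure how unusual the match is. TGACG alone, which lies inside the whole element, was found on either strand in 17.8% of windows and TGACGTCA in 1.55%. None of the 8 windows of the 7 listed genes in the table (Nms included, Grp not) held the whole element. A match describes letters and does not show that a factor binds there.

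Grp, which encodes gastrin-releasing peptide (NM_175012), measured -1.85 (dark-reared 1), -0.42 (dark-reared 2), -0.65 (control 1) and -2.55 (control 2). Dark-reared 2 and control 1 were high and the other two low, as for Adcyap1, and the groups overlapped. The difference was 0.47 (standard error 0.86), and it turned to -0.25 without dark-reared 2 and to -0.48 without control 2.

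Prok2, which encodes prokineticin 2 (NM_015768), had the widest spread. It measured -4.17 (dark-reared 1), -0.67 (dark-reared 2), -2.33 (control 1) and -1.59 (control 2), so the dark-reared samples were lowest and highest and both controls lay between them. The gap of 3.50 between the highest and lowest array was reached or passed by 0.523% of all genes tested, against a median range of 0.42. The group difference was -0.46 (standard error 1.28), with an opposite sign of 1.29 without dark-reared 1 and a value of -2.21 without dark-reared 2. Both Prok2 probes gave this order: the brighter one had a signal of 44.5 in dark-reared 1 and 494 in dark-reared 2, and the dimmer one 26.5 and 286, with errors per spot of 7.24, 49.6, 5.54 and 29.1 in that order.

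The same stretch upstream of Prok2 is shown because the clock is known to act on this gene through E-boxes, the sequence CACGTG that clock transcription factors bind, here in capitals. It lies on the minus strand at chr6:99726443-99726642 and is printed 5′ to 3′ from -250 to -51.
Prok2: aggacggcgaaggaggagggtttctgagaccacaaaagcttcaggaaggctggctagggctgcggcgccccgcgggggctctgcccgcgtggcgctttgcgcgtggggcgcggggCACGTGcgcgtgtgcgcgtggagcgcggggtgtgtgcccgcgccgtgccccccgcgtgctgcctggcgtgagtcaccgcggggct

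The E-box spans -135 to -130 and was the only CACGTG in the 8 windows, which reads the same on both strands. Of all windows 6.02% held one. The related letters CACGTT, found in 3.85% on either strand, were present once, in the window of the second Adcyap1 start, from -91 to -86.

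**Figure D2:**
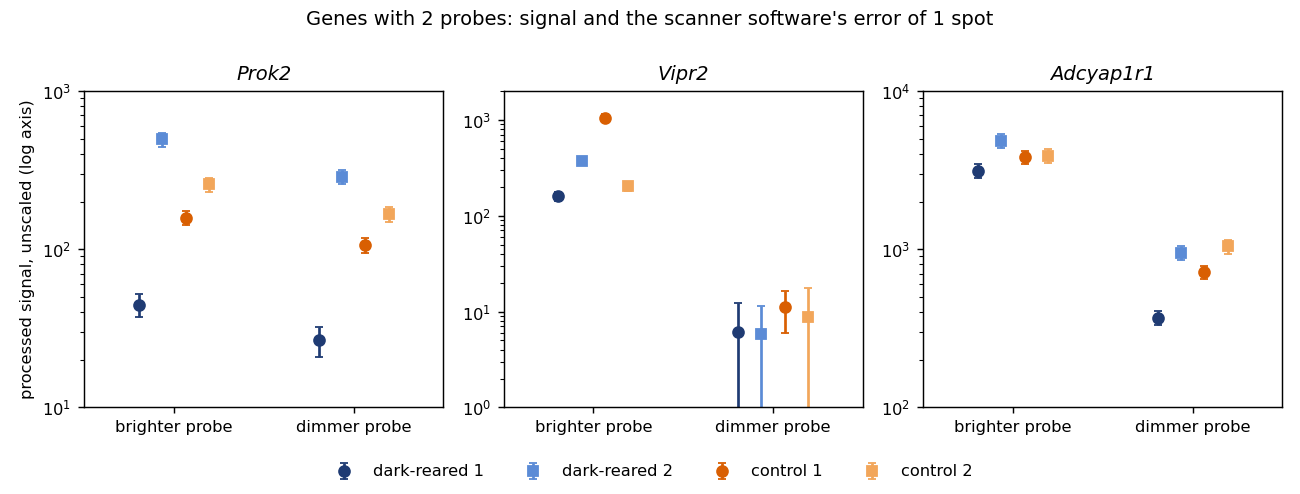
Processed signal before scaling between arrays (log axis) of both probes of Prok2, Vipr2 and Adcyap1r1, with the scanner software's error for 1 spot as bars, which run off the axis on 3 arrays for the dimmer Vipr2 probe. Prok2 in dark-reared 1 was lowest with both probes, at 44.5 and 26.5, and the dimmer Vipr2 probe stayed below the call for well above background on every array.

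Among the receptor genes, Vipr2 ranged over 2.73 between arrays, Adcyap1r1 over 0.66 and Prokr2 over 0.53. Vipr2 encodes VPAC2, which binds VIP and PACAP (NM_009511). It measured -2.33 (dark-reared 1), -1.08 (dark-reared 2), 0.40 (control 1) and -1.92 (control 2), with control 1 above the rest and the groups overlapping. The difference was the largest of the 7 in size, -0.94 (standard error 0.95, 95% interval -3.58 to 1.71), and it turned to 0.22 without control 1. A second Vipr2 probe failed the background call on every array, so 1 probe stands behind these values.

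Prokr2, the prokineticin receptor gene (NM_144944), was the 1 gene of the 7 whose groups did not overlap, where 19.0% of all genes tested did not. It had values of -2.30 in dark-reared 1 and -2.14 in dark-reared 2, against -2.67 in control 1 and -2.56 in control 2. The means were -2.22 ± 0.12 (SD, n = 2) and -2.61 ± 0.08 (SD, n = 2), which lie 0.39 apart (standard error 0.16, 95% interval -0.04 to 0.82). Prokr2 was higher in 2 of 2 dark-reared samples, yet its unadjusted limma p was 0.0659 and its adjusted p 1.00. The signals were 162 and 178 against 125 and 131, and the scanner software gave each spot an error of 13.6 to 18.9. With normexp background correction the difference was 0.19.

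Adcyap1r1 encodes PAC1, the receptor selective for PACAP (NM_007407). The brighter probe gave 1.97 (dark-reared 1), 2.63 (dark-reared 2), 2.27 (control 1) and 2.34 (control 2), and the difference was -0.0035 (standard error 0.27, 95% interval -0.77 to 0.76). Both controls lay between the dark-reared samples. The sign changed with the scaling, to 0.028 with the median in place of the 75th percentile, and the difference was 0.33 without dark-reared 1. The second probe for the same accession gave -1.12, 0.27, -0.15 and 0.43 in the same order and a difference of -0.57. The probes differed in where they placed control 2, which was highest with the second probe, and agreed in placing dark-reared 1 lowest.

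**Figure D3:**
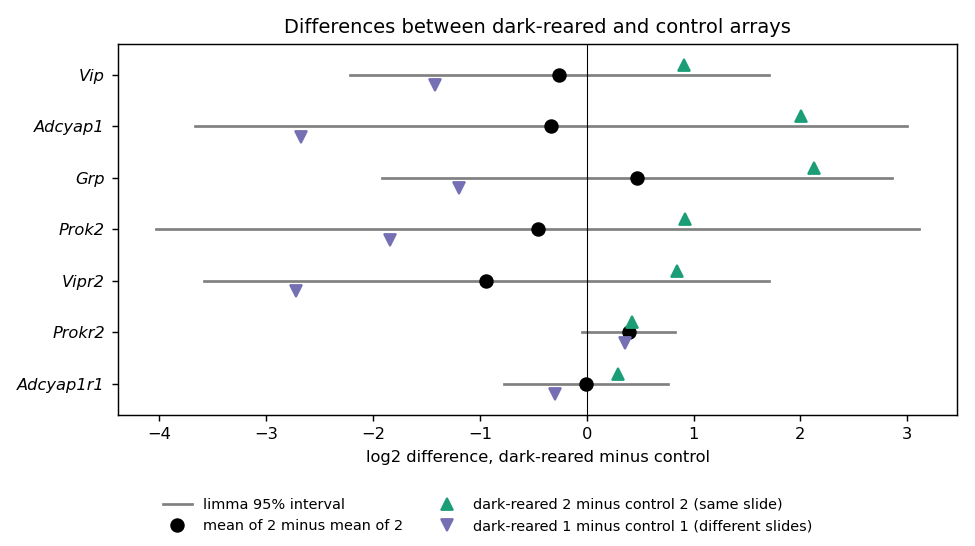
Log2 difference, dark-reared minus control, of each gene. Black points are differences of group means with the limma 95% interval in grey, upward triangles the pair of arrays on 1 slide and downward triangles the other pair. On the shared slide all 7 differences lay above 0, from 0.29 to 2.13, whereas in the other pair 6 of 7 lay below 0.

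The difference depended on which arrays were set against each other. Dark-reared 2 and control 2 were hybridised on 1 slide, and within it all 7 genes were higher in the dark-reared sample. The differences there were 2.13 for Grp, 2.00 for Adcyap1, 0.92 for Prok2, 0.91 for Vip, 0.85 for Vipr2, 0.42 for Prokr2 and 0.29 for Adcyap1r1. The second Adcyap1r1 probe gave -0.16. A difference of at least 2-fold in that direction was reached by 2 of the 7, Grp and Adcyap1, and by 2.75% of all genes tested; the comparison has 1 sample a group and no test. Over all genes 47.9% were higher within the slide, with a median of -0.02. Dark-reared 1 and control 1, on separate slides, gave the opposite sign in 6 of 7 genes: -2.73 for Vipr2, -2.68 for Adcyap1, -1.85 for Prok2, -1.42 for Vip, -1.20 for Grp and -0.30 for Adcyap1r1. Prokr2 was at 0.36 there.

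Vip, Adcyap1, Grp and Vipr2 were higher in dark-reared 2 and control 1 than in the other two arrays, 1 sample of each group. Markers of the labelled tissue varied over the arrays too. Of 18 thalamus markers 17 were tested, 3 higher and 14 lower in dark-reared samples with a median of -0.60, and 0 passed. Within the shared slide 11 of the 17 were higher, with a median of 0.83. Their mean deviation from the 4-array mean was -0.88 (dark-reared 1), 0.29 (dark-reared 2), 0.94 (control 1) and -0.35 (control 2). Summed over the list, relative signal was 21.6 and 67.6 in dark-reared samples and 80.3 and 28.7 in controls. Slc17a6, a glutamate transporter of thalamic relay neurons, had values of -1.02, 3.41, 3.88 and 1.63 in that order. Calb2, of the same list, was likewise high in dark-reared 2 and control 1 (-2.02, 1.75, 1.55 and 0.17). Tnnt1 (-1.46, -1.55, 0.99 and -1.27) and Ramp3 (0.93, 1.04, 3.32 and 1.05) were high in control 1 alone. For the 7 peptide and receptor genes the mean deviations were -0.76, 0.60, 0.64 and -0.48.

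Hypothalamus markers were uneven as well. Of 20 listed, 19 had a probe and 11 were tested, with mean deviations of -1.29 (dark-reared 1), 0.20 (dark-reared 2), 1.03 (control 1) and 0.07 (control 2), and summed signals of 13.8 and 27.7 in dark-reared samples and 47.2 and 26.0 in controls. Of the 11, 1 was higher and 10 were lower in dark-reared samples, 0 passed, and the median difference was -0.91, or 0.33 within the shared slide. Among the markers left out as dim, Sim1 and Otp, transcription factors of neuroendocrine hypothalamic neurons, were not well above background on any array. Hmx2, Hmx3, Fezf1 and Pmch were well above background in dark-reared 2 and control 1 and not in the other two arrays. The remaining dim markers did not follow this: Nr5a1 was well above background in dark-reared 1 and control 1, and Agrp in control 1 alone. Hmx3 was at -2.02 in dark-reared 2 and -1.16 in control 1, and at -7.27 in dark-reared 1 and -4.53 in control 2. Pmch was far apart in the arrays that detected it, at 2.67 in control 1 and -4.48 in dark-reared 2. These 8 dim genes were named after their values were seen. The part of uneven tissue content in the differences of the peptide genes was not tested. In tissue RNA, fewer cells of a type and less RNA per cell cannot be told apart.

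Of 19 other markers of the suprachiasmatic nucleus with a probe, 18 were tested and 1, Six6, was too dim. Six6, a transcription factor needed to form the nucleus, was well above background on 1 array, control 1, with values of -7.09, -6.05, -4.68 and -6.51 in the array order used above. Lhx1, which drives coupling peptides in the nucleus, was measured at -4.40, -1.70, -1.34 and -2.89, again highest in control 1 and dark-reared 2. Avp, the vasopressin gene, expressed in the shell of the nucleus and more strongly in other hypothalamic nuclei, was at -3.62, 3.52, 3.89 and 1.17. Calb2, given above with the thalamus list, was also high in dark-reared 2 and control 1. Rora was high in control 1 alone (0.09, 0.17, 1.76 and 0.01) and Avpr1a in dark-reared 2 alone (-4.60, -2.21, -4.00 and -4.02). Penk, also in the striatum list, was at 7.53, 6.04, 6.24 and 7.55. The list's mean deviations were -0.68, 0.25, 0.52 and -0.09. Its summed signals were 370 and 274 against 299 and 400, highest in control 2 and dark-reared 1. Of the 18 tested, 3 were higher and 15 lower in dark-reared samples, 0 passed, and the median was -0.32, or 0.15 within the shared slide. Six3, a developmental regulator of the same region, was the 1 marker of these whose groups did not overlap, at -2.29 and -2.35 against -1.64 and -1.92. Its limma adjusted p was 1.00, and 19.0% of all genes tested had no overlap. The lack of overlap fixes the sign of Six3 within the slide (-0.43), so that sign adds nothing to the group difference.

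**Figure D4:**
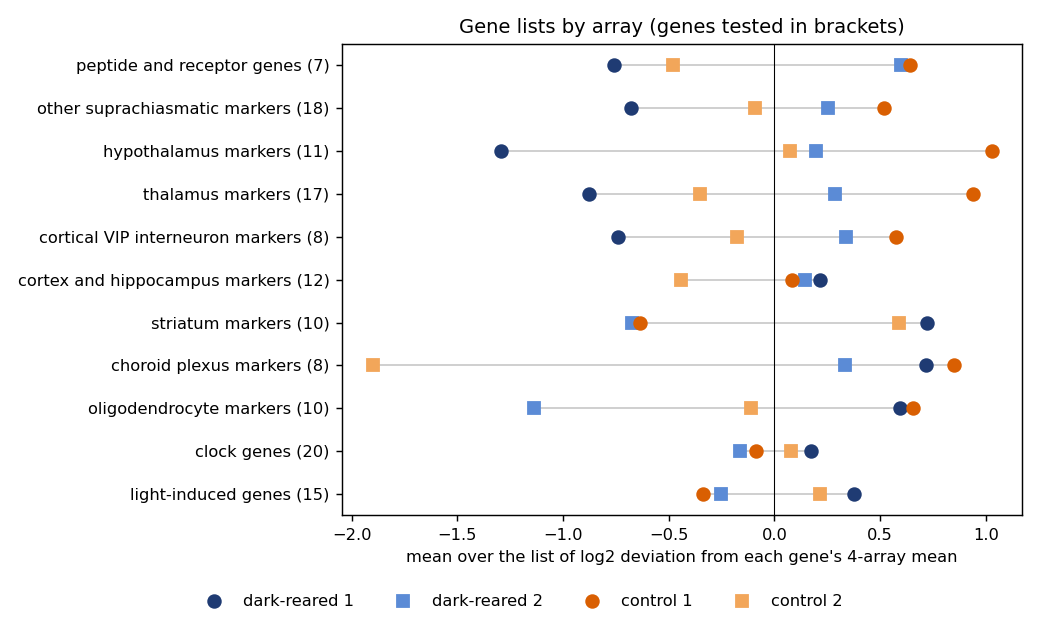
Mean log2 deviation from each gene's 4-array mean, over the tested genes of each list, on the 4 arrays. The peptide and receptor genes lay at -0.76 and -0.48 in dark-reared 1 and control 2 and at 0.60 and 0.64 in dark-reared 2 and control 1, the thalamus markers at -0.88, -0.35, 0.29 and 0.94 in that order, and the striatum markers at 0.72, 0.59, -0.68 and -0.64.

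Markers of neighbouring tissue differed between samples as well. Of 12 cortex and hippocampus markers, all tested, 8 were higher and 4 lower in dark-reared samples with a median of 0.44, the same within the shared slide (0.44), and 0 passed. In 4 of them the groups did not overlap, all higher in dark-reared samples, where 19.0% of all genes tested did not overlap. Of these, 2 were also at least 2-fold apart, as were 1.19% of all genes tested. Among the thalamus markers 2 did not overlap, both lower and at least 2-fold apart. Among the tested hypothalamus markers 2 did not overlap, both lower. Tbr1, a transcription factor of cortical projection neurons, was at -1.61 and -1.30 in dark-reared samples and -2.67 and -2.44 in controls, with a limma adjusted p of 1.00. The mean deviations of the cortex and hippocampus list were 0.22 (dark-reared 1), 0.14 (dark-reared 2), 0.08 (control 1) and -0.44 (control 2), and its summed signals 41.9 and 27.4 against 25.2 and 32.8. All 10 striatum markers were tested, 8 higher and 2 lower with a median of 0.04 (-1.52 within the slide), and 0 passed. Their mean deviations were 0.72 (dark-reared 1), -0.68 (dark-reared 2), -0.64 (control 1) and 0.59 (control 2), high where Vip, Adcyap1, Grp and Vipr2 were low, with summed signals of 295 and 100.3 in dark-reared samples and 113 and 278 in controls. Drd1, the D1 dopamine receptor, had values of 2.71, 1.33, 1.15 and 2.52 in that order. Of 10 listed markers of cortical VIP interneurons, another source of Vip, 8 were tested, 2 higher and 6 lower with a median of -0.48 (0.31 within the slide) and 0 passing. They had deviations of -0.74, 0.34, 0.58 and -0.18 and summed signals of 24.5 and 20.8 against 52.7 and 16.4. The 8 choroid plexus markers, 7 higher and 1 lower with a median of 1.28 (2.37 within the slide), were low in control 2 (deviation -1.90, summed signal 3.05, against 12.4 to 20.3 in the other arrays). The 10 oligodendrocyte markers, all lower with a median of -0.64 (-1.15 within the slide), were low in dark-reared 2 (deviation -1.14, summed signal 148, against 351 to 600 in the other arrays). In both lists 0 passed. What part these contents have in the values of the peptide genes was not tested. Sex-linked RNA also differed within groups: Xist was at 3.41 and 3.77 in dark-reared 1 and control 1 and not well above background in the others, and Ddx3y was not well above background in control 1 alone.

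The genes nearest in pattern to the 3 most variable members were sought among 13528 named genes, by the root mean square difference of the 4 centred values. Nearest to Prok2 were Gbx2, a transcription factor of the developing thalamus, at 0.17, Ngfr, the low-affinity neurotrophin receptor, at 0.30, and the olfactory receptor gene Olfr411 at 0.30. Gbx2 measured -4.40 (dark-reared 1), -1.21 (dark-reared 2), -2.80 (control 1) and -2.29 (control 2). For Vipr2 they were Plekhd1 at 0.15, Vav3, a guanine exchange factor in the thalamus list, at 0.17, and Rgs16, a regulator of G-protein signalling in the suprachiasmatic list, at 0.20. For Adcyap1 they were the neurotrophin gene Bdnf at 0.25, the anion exchanger gene Slc26a4 at 0.26 and Rasd1, a small GTPase, at 0.27. Likeness over 4 arrays describes these samples alone.

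**Figure D5:**
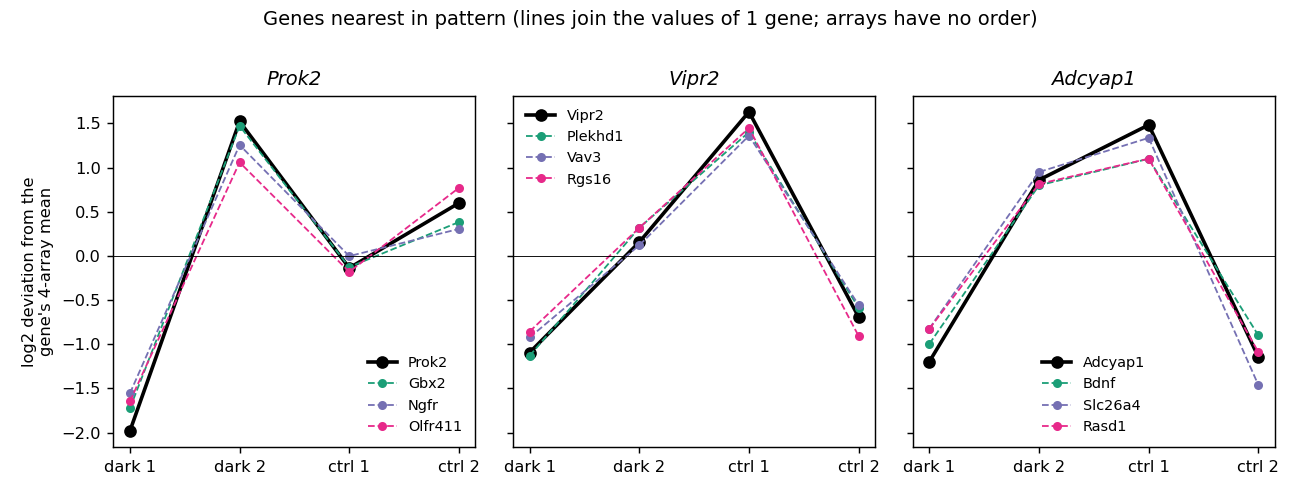
Log2 deviation from the gene's own 4-array mean for Prok2, Vipr2 and Adcyap1 (black) and the 3 genes nearest to each (dashed). The neighbours of Prok2 peaked in dark-reared 2 like it, and those of Vipr2 and Adcyap1 peaked in control 1, at distances of 0.15 to 0.30.

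The remaining genes of these peptide families were mostly dim. Of 16 relatives listed, 15 had a probe and 7 were tested, 3 higher and 4 lower in dark-reared samples, with 0 passing and a median of -0.12 (0.23 within the slide). Nmbr, Brs3, Nmur1, Nmur2, Prokr1 and Sctr, receptors related to those described and named after their values were seen, were not well above background on any array. Grpr, the receptor for gastrin-releasing peptide, was measured on all 4, at -2.42 and -1.45 in dark-reared samples and -1.88 and -1.74 in controls. Vipr1, which encodes VPAC1, was at -2.98 and -3.88 against -3.30 and -2.95. Ghrh, growth hormone-releasing hormone, a relative of VIP, was highest in control 1 at -0.49, the others lying from -2.06 to -1.43. The groups overlapped for each of these 3.

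Clock genes, light-induced genes, transduction genes and glutamate receptor genes did not pass the test either. Of 20 clock genes, all tested, 12 were higher and 8 lower, 0 passed, and the median was 0.02 (-0.23 within the shared slide). Per1, a clock gene that light induces, was at 1.23 (dark-reared 1), 0.44 (dark-reared 2), 0.50 (control 1) and 1.12 (control 2), and Per2 at -1.08, -1.61, -1.70 and -1.17. Both were higher in dark-reared 1 and control 2, where Vip, Grp, Adcyap1 and Vipr2 were lower. Of 16 light-induced genes 15 were tested, 11 higher and 4 lower with a median of 0.07, and 0 passed. Within the shared slide 4 of the 15 were higher, with a median of -0.23. The list's mean deviations were 0.38 and -0.25 in dark-reared samples and -0.34 and 0.22 in controls. Those of the striatum list, 0.72 and -0.68 against -0.64 and 0.59, had the same signs, and a part of tissue content was not tested. Egr2, an immediate early gene, was at 0.77 and -0.91 against -1.50 and 0.69. Fos, the usual marker of a light response in the nucleus, was at -1.73 and -1.55 in dark-reared samples and -1.69 and -1.46 in controls. Among 31 tested genes of cAMP, Gq and MAP kinase transduction 14 were higher and 17 lower, with a median of -0.01 (-0.17 within the slide) and 0 passing. Plcb4, a phospholipase coupled to Gq and abundant in thalamus, was at -1.73, -0.59, 0.11 and -1.31. Of 9 AMPA and NMDA receptor genes, 4 were higher and 5 lower with a median of -0.13 (-0.29 within the slide), and 0 passed.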

How the data were processed

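One-colour (Cy3) arrays of 2 dark-reared and 2 control samples were analysed. Intensities per spot come, per the file headers, from version 10.7.3.1 of Agilent's Feature Extraction; the submitters' processing notes name 10.7. Header statistics record background subtraction and detrending. A deposited table of log2 values has a median of 6.84 on every array and correlates with log2 of the processed signal at 0.999 to 1.00; its scaling was not stated.

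Control spots and 79 to 103 outlier spots an array were left out, spots of a probe averaged, and the array's 75th percentile of processed signal (772 to 802) subtracted on the log2 scale. Probes were named by RefSeq accession through a GRCm38.p6 table (26918 of 41174 named); the array annotation is mm9, so probe positions are left out. A filter kept 28444 probes, those well above background in both samples of either group, with the brightest standing for its gene, which left 21427 genes. On each array, 65.9% to 73.3% of probes were well above background, and no spot was saturated. Rearing was tested in R 4.3.3 using limma 3.58.1 (lmFit, eBayes, two-sided, Benjamini-Hochberg, threshold 0.05), tested on simulated data. The number of arrays limits the precision.

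The genes and all lists were chosen with earlier results of these data known. From each list up to 4 genes with the largest difference (6 for relatives, clock and suprachiasmatic lists) could be named, plus Avp, Per1, Per2, Fos, Lhx1 and Six6. Exceptions are said where named. Lists of pituitary (7 tested, median -0.35), astrocyte (8, 0.06), microglia (8, 0.07) and endothelial markers (8, 0.04) had 0 genes past the threshold. Alternatives were other scalings, normexp on median signals (the files hold no mean spot signal) with offset 50, the deposited values, filters, probe rules, blocks and each array left out.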

Additional observations from a re-analysis of the deposited data

How the results depend on the processing

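Under every alternative 0 genes passed the adjusted threshold, and the lowest adjusted p of the 7 genes over the alternatives with a test was 0.678 (Prok2, without dark-reared 2); within the shared slide no test can be made. Prokr2 kept its sign in 15 of 15 alternatives, from 0.19 to 0.47, but most of these could not turn it. Its groups do not overlap, which fixes the sign with 1 array left out and within the slide. The filters, probe rule, kept outliers and block left its value at 0.39. Its probe has 1 spot, so keeping outliers could not move that value. With the other scalings, normexp and the deposited values it was 0.19 to 0.42. The sign of Adcyap1r1 turned with the median (0.028), quantile normalization (0.024), normexp (0.047) and the deposited values (0.020), the difference being near 0 under each. With the mean of its detected probes in place of the brightest, Adcyap1r1 kept its sign and stood further from 0, at -0.285. Within the shared slide Vip (0.91), Prok2 (0.92), Adcyap1 (2.00), Vipr2 (0.85) and Adcyap1r1 (0.29) took the opposite sign. With 1 array left out, Vip ran from -1.20 to 0.69, Grp from -0.48 to 1.42, Prok2 from -2.21 to 1.29, Adcyap1 from -1.65 to 0.97, Vipr2 from -2.10 to 0.22 and Adcyap1r1 from -0.34 to 0.33. The cause of these turns was not tested. Genes at least 2-fold apart with no overlap numbered 256, 23 with normexp, 78 with the filter on all 4 arrays, 808 without a filter, 1366 past 2-fold within the slide, and 525 to 884 with 1 array left out. The no-overlap rule is looser with fewer arrays. The deviations of samples sharing a replicate number correlated at -0.16 over genes. This cannot decide whether the numbers pair the samples, because marker content also varied within groups. Xist was well above background in both samples numbered 1 and in neither numbered 2, and both samples numbered 2 shared a slide. The replicate block called 0 genes, 272 at an unadjusted p under 0.05. With the numbers crossed, a choice made after seeing the data, it called 0 and 433. The 4 arrays and the dimness of probes such as Six6 limit what can be seen.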
